A study of Mus musculus with 10 samples.

Results

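Slc12a2, Atp1b1, Atp1b2, Bsnd, Esrrb, Gjb2 and Gjb6 are genes of ion transport in the stria vascularis and of the gap junctions of the cochlea. They were taken by name from the probe sets that the platform annotation pairs with exactly 1 gene symbol, with the brightest probe set to be kept where a gene had several. All 7 were measured, each by 1 probe set, among 29766 genes in all. The samples are tissue labelled cochlea from CBA/CaJ mice, a strain that loses hearing late in life, each put on 1 microarray. The mice were 6 months old, had normal hearing and were housed singly, with a running wheel in the cage for 5 samples (runners) and without one for the other 5 (controls). No genetic change is given in the labels for either group, and neither the distance run nor the sex of the mice is given. The extraction notes speak of inner ear tissue. Nothing in the labels says that the 10 samples are 10 animals, so the p-values rest on the spread between samples, which may be technical.

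The stria vascularis is the layered epithelium on the outer wall of the cochlear duct that secretes potassium into the endolymph and keeps that fluid at a positive potential, on which hair cell transduction depends. Its marginal cells take up potassium from the space within the stria through the sodium, potassium and chloride cotransporter NKCC1 and the sodium pump, return chloride through a basolateral channel, and release potassium through an apical channel. Potassium that has passed through the hair cells is thought to be carried back through supporting cells and fibrocytes that are joined by gap junctions.

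Levels are log2 expression values made by RMA, a method that corrects background, equalizes the distributions of the arrays and combines the probes of a gene. The median over all genes lay between 5.35 and 5.43 in the 10 arrays, and array pairs correlated at 0.991 to 0.997 over all genes. With 5 arrays a group, precision is limited throughout. Runner 1 stood apart from the other runners in most of the lists below, so the results that rest on it are given with and without it. The 5 hair cell markers averaged 5.45 to 5.64 in controls and 5.16 to 5.62 in runners, near the median of all genes, and their dimmest, prestin (Slc26a5), averaged 4.34, below it. Cerebellar neuron markers were brighter, with a mean of the 5 genes of 9.10 to 9.30 in controls and 8.95 to 9.59 in runners. In such bulk samples fewer cells of a type and less RNA per cell cannot be told apart.

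None of the 7 genes differed between runners and controls in the test across all genes. With limma, 0 of the 7 had an adjusted p under 0.05, and 2 of the 29766 genes did, or 0.00672% of genes. At an unadjusted p under 0.05 the count was 0 of 7 beside 7.13% of all genes. Slc12a2, Esrrb, Gjb2 and Gjb6 had lower means in runners and Atp1b1, Atp1b2 and Bsnd higher ones, with 49.5% of all genes below 0. The median difference, runner minus control, was -0.075 log2 over the 7 genes and 0.00091 over all genes. The groups overlapped for each of the 7, while they did not for 0.927% of all genes.

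**Figure D1:**
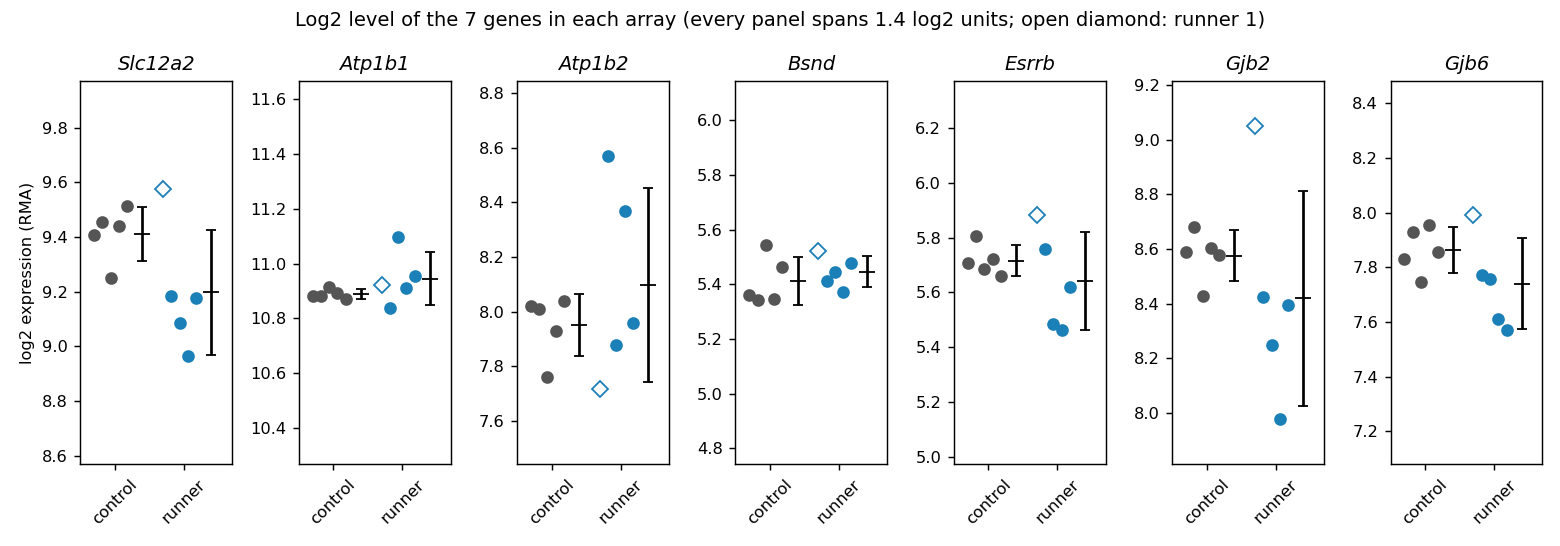
Log2 expression of the 7 genes in each array, 5 controls in grey and 5 runners in blue, with the group mean and SD in black at the right of each group. Runner 1, the open diamond, is the highest of the 10 arrays for Slc12a2, Esrrb, Gjb2 and Gjb6 and the lowest for Atp1b2.

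Slc12a2 encodes NKCC1, the cotransporter that loads the marginal cells with potassium. Its log2 level was 9.41, 9.45, 9.25, 9.44 and 9.51 in controls 1 to 5 and 9.57, 9.19, 9.09, 8.97 and 9.18 in runners 1 to 5. Runners 2 to 5 thus lay below every control, and runner 1 lay above every control. Controls had a mean of 9.41 ± 0.098 (SD, n = 5) and runners one of 9.20 ± 0.23 (SD, n = 5), which differ by -0.21 ± 0.099 (SE) log2, or 1.16-fold, with a 95% interval from -0.43 to 1.64e-05. It did not pass (limma adjusted p = 0.698, unadjusted p just above 0.05; exact permutation p = 0.103, two-sided). Without runner 1 the difference was -0.31 ± 0.069 (SE), or 1.24-fold, and still did not pass (limma adjusted p = 0.0736). Over those 9 arrays the groups did not overlap for Slc12a2 and Gjb2, both lower in runners. This was so for 5.82% of all genes, and with runners lower for 3.33%.

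Atp1b1 and Atp1b2 encode beta subunits of the sodium pump, which carry the catalytic alpha subunit to the cell membrane. Atp1b1 was at 10.88, 10.88, 10.92, 10.89 and 10.87 in controls 1 to 5 and at 10.92, 10.84, 11.10, 10.91 and 10.96 in runners 1 to 5. The controls lay within a narrow band, with runner 2 below it, runners 1, 3 and 5 above it and runner 4 inside it. The difference was 0.056 ± 0.056 (SE) log2, with a 95% interval from -0.065 to 0.18 (limma adjusted p = 0.858).

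Atp1b2, the beta 2 subunit, is known in brain as an adhesion molecule of glia. It was at 8.02, 8.01, 7.76, 7.93 and 8.04 in controls 1 to 5 and at 7.72, 8.57, 7.88, 8.37 and 7.96 in runners 1 to 5. Runners 2 and 4 lay above every control, runner 1 below every control, and runners 3 and 5 among the controls. The means of 7.95 ± 0.11 (SD) in controls and 8.10 ± 0.36 (SD) in runners differed by 0.15 ± 0.14 (SE) log2, with a 95% interval from -0.16 to 0.45 (limma adjusted p = 0.848). Without runner 1 the difference was 0.24 ± 0.13 (SE; limma adjusted p = 0.441). The mean of the 5 astrocyte markers, none of which had an unadjusted p under 0.05, was 7.25 to 7.49 in controls and 7.31 to 7.58 in runners. Runners 2 and 4, the arrays high in Atp1b2, were at 7.37 and 7.47 in that list, and runner 3 held its highest value. Whether brain tissue was carried into the samples, and what part it would have in the Atp1b2 level, was not tested.

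Bsnd encodes barttin, the subunit that the basolateral chloride channels of marginal cells need. It was at 5.36, 5.34, 5.54, 5.35 and 5.47 in controls 1 to 5 and at 5.52, 5.41, 5.44, 5.37 and 5.48 in runners 1 to 5. All runners lay inside the range of the controls. The difference was 0.034 ± 0.058 (SE) log2, with a 95% interval from -0.091 to 0.16 (limma adjusted p = 0.927). Among the 7 genes Bsnd was the only one whose SD was smaller in runners, at 0.057 beside 0.089 in controls. Its level was close to the median of all genes, 5.40.

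Esrrb encodes a nuclear receptor related to the estrogen receptors that is needed in marginal cells for the expression of ion transport genes. It was at 5.71, 5.81, 5.69, 5.72 and 5.66 in controls 1 to 5 and at 5.88, 5.76, 5.49, 5.46 and 5.62 in runners 1 to 5. Runners 3, 4 and 5 lay below every control, runner 2 among them and runner 1 above. The difference was -0.075 ± 0.080 (SE) log2, with a 95% interval from -0.25 to 0.098 (limma adjusted p = 0.870), and -0.14 ± 0.069 (SE) without runner 1 (limma adjusted p = 0.412).

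Gjb2 and Gjb6 encode the connexins Cx26 and Cx30, which together form most gap junctions of cochlear supporting cells and fibrocytes. In many human populations Gjb2 is the gene most often mutated in inherited deafness. Gjb2 was at 8.59, 8.68, 8.43, 8.60 and 8.58 in controls 1 to 5 and at 9.05, 8.42, 8.25, 7.98 and 8.40 in runners 1 to 5. Runner 1 was 0.79 log2 above the mean of the other runners, and runners 2 to 5 lay below every control. The means of 8.58 ± 0.093 (SD) and 8.42 ± 0.39 (SD) differed by -0.16 ± 0.15 (SE) log2, with a 95% interval from -0.48 to 0.17 (limma adjusted p = 0.850). Without runner 1 the difference was -0.31 ± 0.091 (SE), or 1.24-fold, and did not pass (limma adjusted p = 0.129).

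Gjb6 was at 7.83, 7.93, 7.75, 7.96 and 7.86 in controls 1 to 5 and at 7.99, 7.77, 7.76, 7.61 and 7.57 in runners 1 to 5. Runners 4 and 5 lay below every control, runners 2 and 3 just inside the range of the controls and runner 1 above it. The difference was -0.12 ± 0.079 (SE) log2, with a 95% interval from -0.29 to 0.049 (limma adjusted p = 0.775), and -0.18 ± 0.066 (SE) without runner 1 (limma adjusted p = 0.213).

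Leaving out runner 1 moved the differences of Slc12a2, Esrrb, Gjb2 and Gjb6 away from 0. Leaving out runner 4, the lowest array for Slc12a2, Esrrb and Gjb2, moved them toward 0, to -0.16 for Slc12a2, -0.030 for Esrrb, -0.047 for Gjb2 and -0.090 for Gjb6. Without runner 1, Slc12a2, Gjb2 and Gjb6 had an unadjusted p under 0.05, which is 3 of 7 beside 14.5% of all genes, and 0 of 7 passed after adjustment beside 0.333% of all genes. Without control 3, the lowest control for Slc12a2, that gene had an unadjusted p of 0.0305 (limma adjusted p = 0.678), the only one of the 7 under 0.05.

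**Figure D2:**
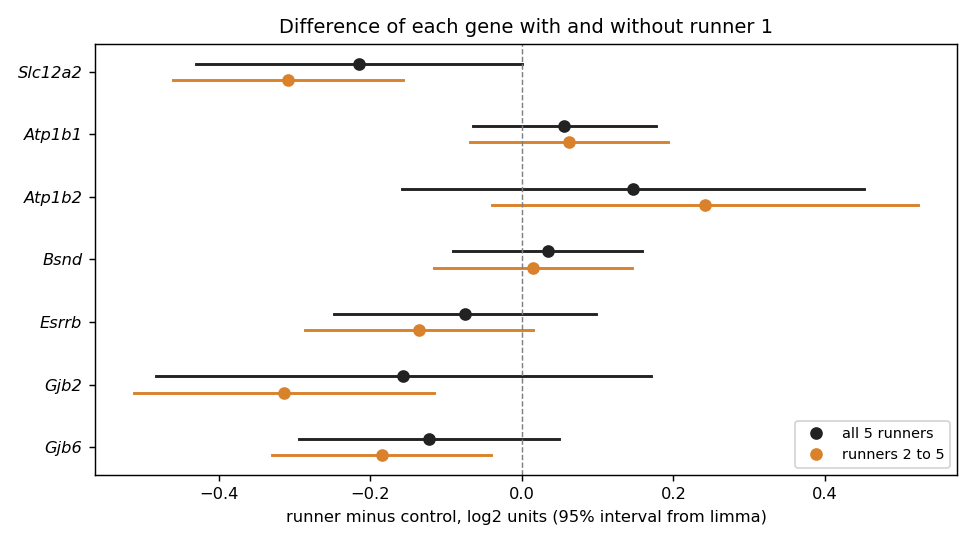
Difference between runners and controls in log2 units for each gene, as the estimate (point) and 95% interval (line) of limma, with all 5 runners in black and with runners 2 to 5 in orange. The estimates of Slc12a2 and Gjb2 move from -0.21 and -0.16 to -0.31 and -0.31 when runner 1 is left out, and Bsnd and Atp1b1 stay near 0.

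The genes varied more among runners than among controls, Bsnd excepted. The SD of runners was larger for 6 of the 7 genes, and for 67.6% of all genes. The median ratio of the SDs, runners over controls, was 3.12 over the 7 genes and 1.31 over all genes. Without runner 1 it was still 2.19 over the 7 genes beside 1.16 over all genes. The 7 genes were brighter, with a median level of 8.03 beside 5.40 over all genes, and their SD ratios were not compared with those of genes of like level. The ratio was 5.52 for Atp1b1, 4.24 for Gjb2, 3.25 for Esrrb, 3.12 for Atp1b2, 2.33 for Slc12a2 and 2.002 for Gjb6.

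Slc12a2, Gjb2, Gjb6 and Esrrb varied together across the arrays. Of the 21 pairs among the 7 genes, 5 passed a permutation test of Pearson's r over the 10 arrays after Benjamini-Hochberg adjustment, all with r above 0 and all among these 4 genes. Slc12a2 and Gjb2 had the highest, with r = 0.93 (permutation p = 6.0e-05, adjusted 0.00126) and rho = 0.93 (permutation p = 0.00043, adjusted 0.00903). Esrrb and Gjb2 followed with r = 0.90 (permutation p = 0.00028, adjusted 0.00294) and rho = 0.87 (permutation p = 0.00238, adjusted 0.0125). Without the pair of arrays farthest from the median of the gene named first, r was 0.94 for Slc12a2 and Gjb2 and 0.82 for Esrrb and Gjb2. Runners 1 and 4 were the highest and the lowest array for Slc12a2 and Gjb2, and that pair was as close over the other 8 arrays, while Esrrb and Gjb2 were somewhat less close without runners 3 and 4.

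The connexins Gjb2 and Gjb6 had r = 0.82 (permutation p = 0.00243, adjusted 0.0128) and rho = 0.89 (permutation p = 0.0010, adjusted 0.0105), and r = 0.72 without runners 1 and 4. Slc12a2 had r = 0.85 with Gjb6 (permutation p = 0.00201, adjusted 0.0128; rho = 0.87, permutation p = 0.00209, adjusted 0.0125) and 0.81 with Esrrb (permutation p = 0.0041, adjusted 0.0172; rho = 0.75, permutation p = 0.0183, adjusted 0.0616). Without runners 1 and 4 these were 0.74 and 0.59. Esrrb and Gjb6 did not pass by r (0.74, permutation p = 0.0145, adjusted 0.0508) and passed by rho (0.78, permutation p = 0.0103, adjusted 0.0434).

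All pairs share the same 10 arrays. Of the other 29765 genes, 77 or 0.259% were at least as close to Slc12a2 as Gjb2 was, and 88 or 0.296% at least as close to Esrrb as Gjb2 was. For Gjb2 568 genes or 1.91% were at least as close as Gjb6. For Slc12a2 434 or 1.46% were at least as close as Gjb6 and 821 or 2.76% at least as close as Esrrb. For Esrrb 1223 or 4.11% were at least as close as Gjb6. With each value set relative to its own group's mean, 2 of the 21 pairs passed when arrays were permuted within groups. These were Slc12a2 with Gjb2 (r = 0.97, permutation p = 0.0015, adjusted 0.0158) and Esrrb with Gjb2 (r = 0.90, permutation p = 0.00079, adjusted 0.0158). Arrays were left out only in the first test, on values not set relative to the group mean and permuted across both groups. In that test the same 2 pairs passed without runner 1. Only Slc12a2 with Gjb2 passed without runner 4 (r = 0.89, permutation p = 0.00026, adjusted 0.00546). Atp1b1 and Atp1b2, which encode alternative beta subunits of the pump, had r = -0.44 (permutation p = 0.201, adjusted 0.385) and rho = -0.73 (permutation p = 0.0205, adjusted 0.0616), and r = -0.23 without runners 2 and 3. Bsnd passed with none of the other genes, its r lying between -0.48 with Atp1b2 and 0.26 with Atp1b1.

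**Figure D3:**
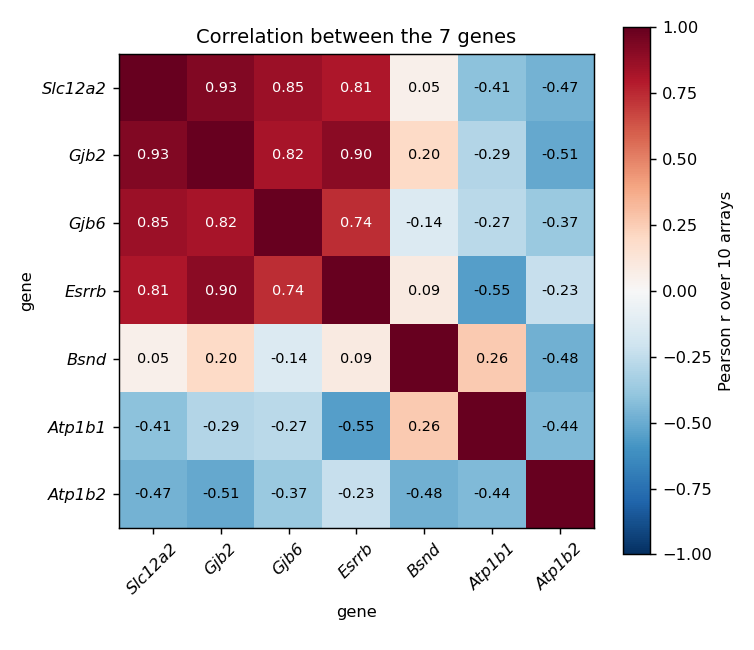
Pearson's r over the 10 arrays for every pair of the 7 genes, from -1 in blue to 1 in red. Slc12a2, Gjb2, Gjb6 and Esrrb form a block with r between 0.74 and 0.93, while Atp1b1, Atp1b2 and Bsnd lie between -0.55 and 0.26 with every other gene.

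The 2 connexin genes are the nearest protein-coding neighbours of each other in the RefSeq table, which places both on chromosome 14 with their starts 28.9 kb apart. Because they varied together, their start regions are shown side by side, from 250 bases before to 50 bases after the gene start, as given by RefSeq on build GRCm38.p6, both on the minus strand, with matches to the GC box GGGCGG in capitals.
Gjb2, chr14:57104653-57104952: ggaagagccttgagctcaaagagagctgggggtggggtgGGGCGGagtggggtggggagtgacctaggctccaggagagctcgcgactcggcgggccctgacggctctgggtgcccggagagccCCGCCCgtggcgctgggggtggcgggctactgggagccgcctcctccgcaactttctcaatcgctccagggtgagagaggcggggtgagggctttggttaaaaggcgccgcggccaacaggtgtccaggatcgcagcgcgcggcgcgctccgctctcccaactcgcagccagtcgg
Gjb6, chr14:57133562-57133861: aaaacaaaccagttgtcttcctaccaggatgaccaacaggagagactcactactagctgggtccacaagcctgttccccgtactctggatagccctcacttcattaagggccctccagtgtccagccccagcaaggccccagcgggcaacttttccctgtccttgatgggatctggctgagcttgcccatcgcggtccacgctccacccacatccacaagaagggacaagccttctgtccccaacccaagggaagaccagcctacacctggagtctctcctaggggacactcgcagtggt

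The Gjb2 region held the GC box in both orientations, beginning 211 and 126 bases before the start, and the Gjb6 region held none, where 35.7% of all 32851 start regions had a match on either strand. Their GC contents were 70.0% and 57.3%, beside a median of 52.7% over all start regions. The half-site of the estrogen-related receptors, searched as TNAAGGTCA on both strands since Esrrb is among the genes, was in neither, nor in the start regions given for Atp1b1 (1) and Esrrb (2), and in 1.28% of all. The TATA box, searched as TATAAA, was likewise in none of these, and in 13.6% of all. No match says only that these letters are not in these windows.

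Markers of cells that are known to express these genes were also at control levels in runner 1 and mostly lower in the other runners. So were markers of some other cells, but not of all. The mean of the 5 supporting cell markers was 6.86 to 7.04 in controls, 6.96 in runner 1 and 6.53 to 6.69 in runners 2 to 5. Of these markers 4 of 5 were lower and 4 had an unadjusted p under 0.05. Over all genes 49.5% were lower and 7.13% had such a p. The mean of the 4 marginal cell markers was 6.22 to 6.43 in controls, 6.43 in runner 1 and 5.86 to 6.28 in the other runners. Of these 3 of 4 were lower and 2 had an unadjusted p under 0.05. This list shares at least Kcnq1, its dimmest marker, and, judging by its median difference of -0.24 log2, also Kcne1 with the pathway genes given below. Kcne1 (limma unadjusted p = 0.0180) would then count among the genes under 0.05 in both places. The 2 results are thus not separate observations. The mean of the 5 fibrocyte markers was 8.04 to 8.28 in controls, 8.31 in runner 1 and 7.55 to 7.95 in the other runners. All 5 were lower and 3 had an unadjusted p under 0.05. The 4 markers of strial intermediate cells averaged 6.59 to 6.79 in controls, 6.79 in runner 1 and 6.30 to 6.51 in the other runners (3 lower, 3 at such a p). The 3 markers of strial basal cells averaged 8.01 to 8.20 in controls, 8.17 in runner 1 and 7.90 to 8.07 in the other runners (3 lower, 1 at such a p). In each list runner 1 was at the level of the controls or above, as for Slc12a2, Gjb2 and Gjb6. The cerebellar neuron mean ran the other way, with 8.95 in runner 1, the lowest of all arrays, and 9.35 to 9.59 in the other runners. In the lists of astrocytes, skeletal muscle and choroid plexus, which differed by 0.065, -0.040 and -0.26 log2, runner 1 was not the highest runner. In the middle ear list, at -0.21 log2, it was, at 7.39. None of the markers of the lists given so far in this paragraph passed after adjustment. The 5 macrophage markers averaged 6.68 to 6.83 in controls, 6.81 in runner 1 and 6.45 to 6.50 in runners 2 to 5, and the hair cell markers given above were likewise highest among runners in runner 1. The osteoblast and B lineage lists were lower in runners by more, at -0.62 and -0.56 log2, with every runner below every control, and 2 of the 5 osteoblast markers passed (limma adjusted p under 0.05). The lower means were thus not particular to the cells of the stria and its gap junctions, and the part of any of these lists in the values of the 7 genes was not tested.

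**Figure D4:**
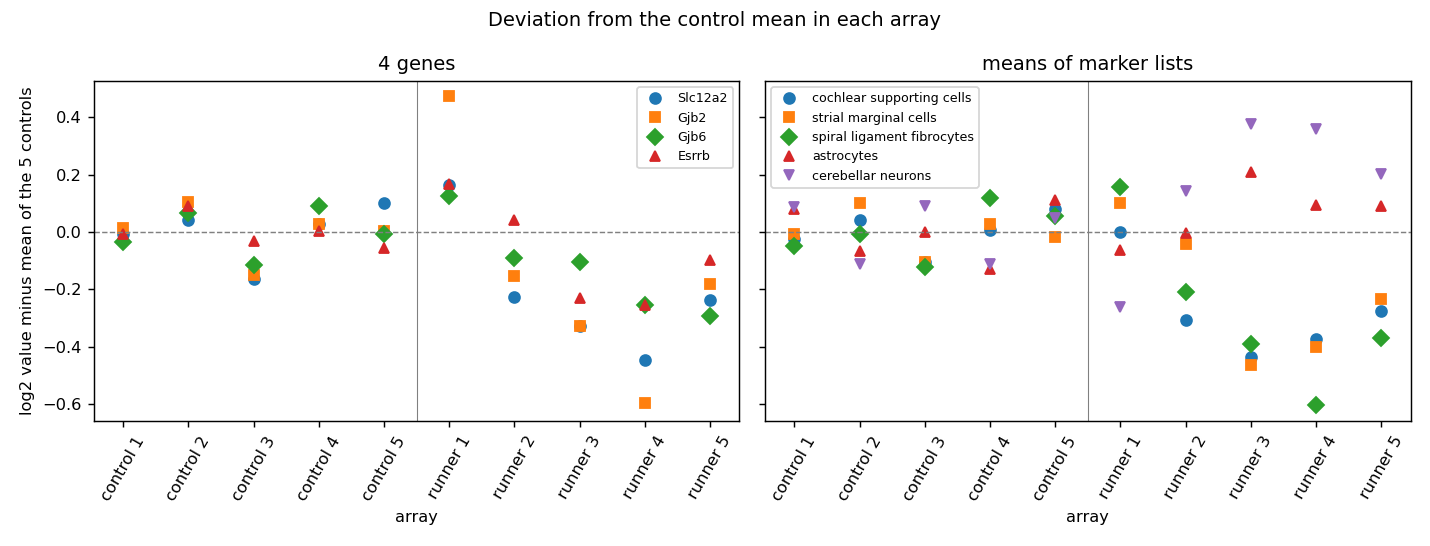
Deviation from the mean of the 5 controls in log2 units, by array, for Slc12a2, Gjb2, Gjb6 and Esrrb (left) and for the means of 5 marker lists (right). Runner 1 lies above 0 for the 4 genes and for fibrocyte and marginal cell markers, and runners 3, 4 and 5 lie below 0 for the 4 genes and for supporting cell, marginal cell and fibrocyte markers.

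Other genes of the same transport route were taken from a list of 40, and 29 had a probe set with 1 symbol. None of the 29 passed (smallest limma adjusted p = 0.607), and 2 had an unadjusted p under 0.05, both lower in runners, where 3.92% of all genes did so. Of the 29 genes 19 were lower, with a median difference of -0.021 log2 beside 0.00091 over all genes. With repeated quantile normalization 18 were lower, with a median of -0.020 beside 0.0018 over all genes. With arrays centred on their median 13 were lower, with a median of 0.0025. Centring also moved the median over all genes up, to 0.024, so this count does not show a lean lost relative to all genes. The counts by class after centring, given below, carry the same shift. The count of 2 became 9 without runner 1, where 14.5% of all genes had such a p in either direction, and 5 without runner 2, where 7.37% did. It became 1 without runner 3 (5.68% of all genes) and 1 without control 2 (4.84%). None of the 29 passed after adjustment without runner 1.

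Among the potassium channels of the stria, 3 of 4 genes were lower. Kcne1, the accessory subunit of the apical potassium channel of marginal cells, was at 6.14, 6.30, 6.00, 6.21 and 6.19 in controls 1 to 5 and at 6.09, 6.19, 5.51, 5.73 and 5.71 in runners 1 to 5. Runners 3 to 5 lay below every control and runners 1 and 2 among them. The difference was -0.32 ± 0.12 (SE) log2 (limma unadjusted p = 0.0180, adjusted p = 0.607). Kcnq1, the pore of that channel, differed by -0.16 ± 0.081 (SE; limma adjusted p = 0.718).

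Of the genes of chloride channels and cotransport 4 of 5 were lower, and 2 of 5 with arrays centred on their median. Slc12a7, which encodes the potassium and chloride cotransporter KCC4, was at 7.37, 7.45, 7.20, 7.29 and 7.29 in controls 1 to 5 and at 7.42, 7.07, 6.89, 6.97 and 7.02 in runners 1 to 5. As for Slc12a2, runners 2 to 5 lay below every control, whereas runner 1 lay among the highest controls. The difference was -0.24 ± 0.092 (SE) log2 (limma unadjusted p = 0.0205, adjusted p = 0.618), and -0.33 ± 0.065 (SE) without runner 1 (limma adjusted p = 0.0538). Slc12a4, which encodes KCC1, differed by -0.070 ± 0.057 (SE; limma adjusted p = 0.815).

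All 5 genes of bicarbonate and proton transport had lower means in runners, 4 of 5 with arrays centred on their median, and none had an unadjusted p under 0.05. Slc26a4, which encodes pendrin, the anion exchanger whose loss causes deafness with an enlarged vestibular aqueduct, was at 7.49 to 7.74 in controls and at 7.87, 7.08, 7.24, 6.65 and 7.43 in runners 1 to 5. Its difference was -0.32 ± 0.17 (SE) log2 (limma adjusted p = 0.723). Slc4a11, a transporter of fibrocytes, was at 8.55 to 8.87 in controls and at 9.11, 8.81, 7.83, 7.80 and 7.95 in runners 1 to 5, a difference of -0.38 ± 0.23 (SE; limma adjusted p = 0.764). Runner 1 was the highest of the 10 arrays for both genes and runner 4 the lowest. Without runner 1 the differences were -0.48 ± 0.13 and -0.58 ± 0.18 (SE), with limma adjusted p = 0.105 and 0.154. Without runner 4 they were -0.17 ± 0.13 and -0.25 ± 0.23 (SE), with limma adjusted p = 0.893 and 0.911.

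Of the other sodium pump genes 4 of 6 were lower, with a median difference of -0.012 log2, and 2 of 6 with arrays centred on their median (0.012). Fxyd3 and Fxyd7, small regulators of the pump, came first by p, with differences of -0.11 ± 0.079 and 0.14 ± 0.10 (SE; limma adjusted p = 0.784 and 0.790). Without runner 1 Fxyd3 was at -0.17 and Fxyd7 at 0.080, and without runner 4 at -0.081 and 0.21, with limma adjusted p = 0.292 to 0.926 for the 4 values. Of 8 other connexins 3 were lower and 5 higher, with 2 lower after centring or repeated quantile normalization, led by Gjc1 (0.093 ± 0.058 SE; limma adjusted p = 0.770) and Gjb5 (-0.096 ± 0.067 SE; limma adjusted p = 0.783). Esrrg, a receptor of the same family as Esrrb, differed by 0.026 ± 0.067 (SE; limma adjusted p = 0.956), and by -0.011 without control 4.

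**Figure D5:**
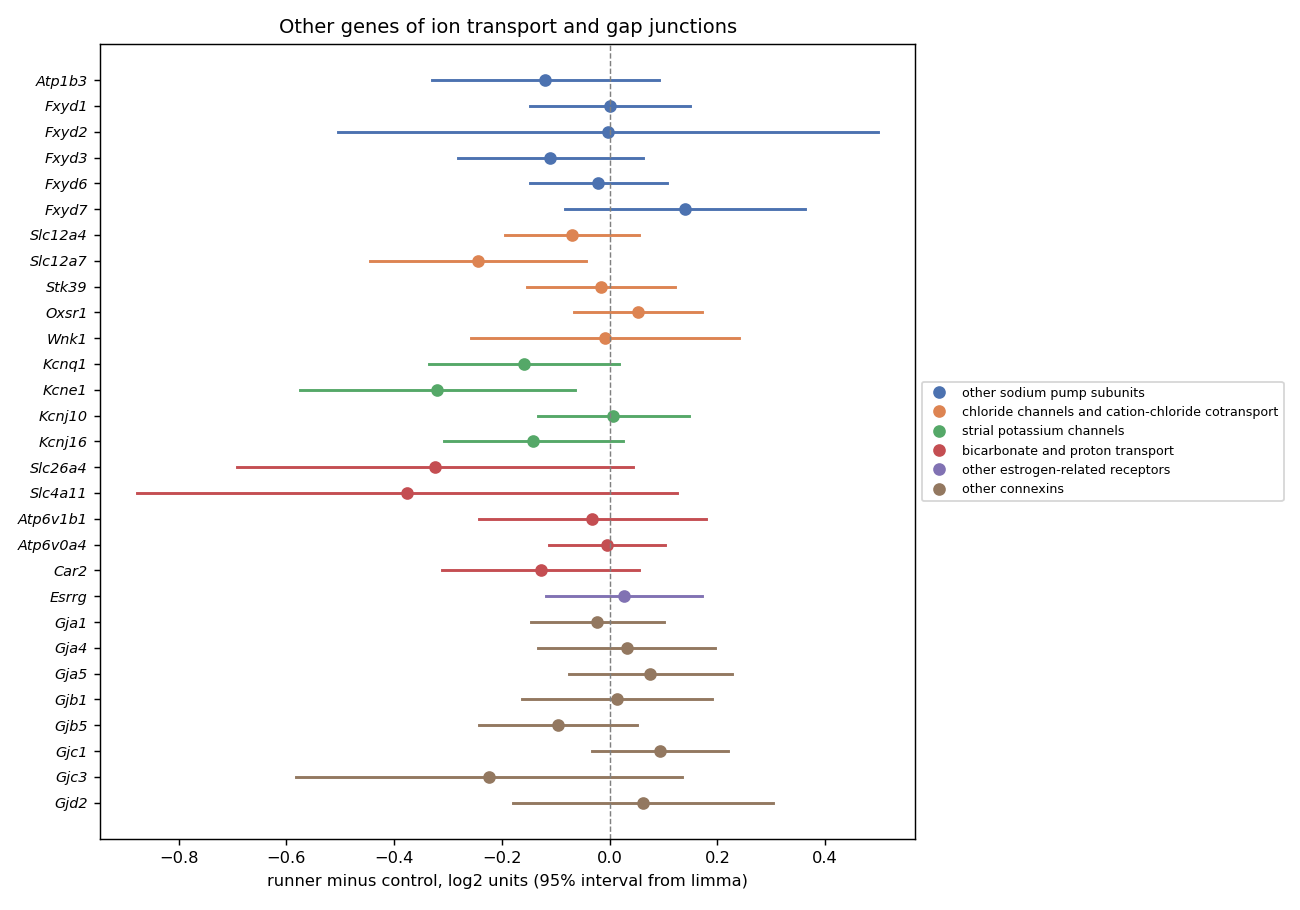
Difference between runners and controls in log2 units for the 29 other genes, as the estimate (point) and 95% interval (line) of limma, coloured by role. Slc12a7 and Kcne1 are the 2 genes whose interval lies wholly below 0, and no interval lies wholly above 0.

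The genes whose levels ran closest to each of the 7 over the 10 arrays, after each value was set relative to its group's mean, were taken from named protein-coding genes. Hpse, which encodes heparanase, was among the closest 3 for both Slc12a2 (r = 0.96) and Gjb2 (r = 0.98). Asah2, a ceramidase gene (0.97), and Kank1 (0.96) were the others for Slc12a2, and Ppp1r1a, a phosphatase inhibitor gene (0.98), and Cnmd, which encodes the cartilage protein chondromodulin (0.98), for Gjb2. Closest to Gjb6 were Ndnf (0.97), Slc26a11 (0.96) and the Wnt receptor gene Fzd5 (0.96).

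Esrrb was closest to Tmbim6 (0.97), the olfactory receptor gene Olfr131 (0.97) and Ceacam16 (0.96), a gene of the tectorial membrane. Atp1b1 was closest to Serpinb1b (0.98), Ccdc85a (0.98) and Adsl (0.97), and Atp1b2 to Ttll3, Ap2a1 and Tcp11l1 (0.98 each). Bsnd was closest to Rab20 (0.96), Olfr681 (0.96) and Mrpl36 (0.95). Olfr131 and Olfr681 were dim, at means of 2.51 and 2.46. These are the highest values among many genes over the same 10 arrays and are given as a description.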

How the data were processed

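Per the labels' protocols, inner ear tissue was frozen and powdered, and its total RNA was biotin-labelled with the WT PLUS kit for 1 array a sample. The deposited values are log2 expression of transcript clusters. RMA and Partek are named per the submitters' processing notes. Chip, build and filters: not given in the sources used here. Quantile normalization in RMA hides a change shared by most genes.

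Of 39295 probe sets, 30130 had 1 gene symbol, 2146 several and 7019 none in the platform annotation. Of these 827 were renamed through Entrez identifiers in RefSeq (GRCm38.p6), and the brightest probe set per gene was kept, which left 29766 genes.

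The 2 groups were compared by limma 3.58.1 under R 4.3.3, with lmFit, eBayes and no covariate, two-sided, and p-values were adjusted over all genes by Benjamini-Hochberg. Intervals are at 95%. Exact permutation tests used all 252 assignments of arrays, with a smallest p of 0.00794, and correlations 100000 permutations. The limma fit and the correlation test were also run on simulated data, and the exact permutation test was not. The 7 genes, the lists and the alternatives were chosen with earlier results of these data known. From the pathway list the genes named are, per class, the 2 of smallest p and any other at an unadjusted p under 0.05, and for likeness the 3 closest genes to each of the 7. Alternatives were a filter on dim genes, other moderation, repeated quantile normalization, array weights, median centring, averaged probe sets, a replicate block and arrays left out.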

Additional observations from a re-analysis of the deposited data

Results flagged for a closer look

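Among the 7 genes, the named pathway genes and the genes closest to the 7, 76 groups of 5 arrays were examined for an array far from the rest. Chance gives about 1 in 20 for independent groups. These groups are not independent, since the closest genes were chosen for following the 7 genes over the same arrays. In 3 groups the gap to the nearest array was more than 0.71 of the range. Asah2, close to Slc12a2, was at 6.29 in control 3 and at 6.52 to 6.61 in the other controls. Kank1, also close to Slc12a2, was at 6.97 in runner 1 and at 6.61 to 6.68 in the other runners. Ttll3, close to Atp1b2, was at 6.11 in control 3 and at 6.19 to 6.21 in the other controls. None of the 7 genes had such an array in either group.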

How the results depend on the processing

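The differences of the 7 genes kept their direction under every alternative tried, and none passed after adjustment. Leaving out 1 array at a time gave -0.31 to -0.16 for Slc12a2, -0.31 to -0.047 for Gjb2, -0.18 to -0.080 for Gjb6, -0.14 to -0.030 for Esrrb, 0.018 to 0.083 for Atp1b1, 0.029 to 0.24 for Atp1b2 and 0.015 to 0.067 for Bsnd. At an unadjusted p under 0.05 in limma, 0 of the 7 became 1 with repeated quantile normalization (7.82% of all genes) and 1 with the replicate block (6.67%). The count was 2 with array weights (12.9%), 3 without runner 1 and control 1 (15.5%), and 0 to 3 with 1 array left out (4.84% to 14.5%). With the mean of all probe sets it was 1 (7.12%), though each of the 7 has 1 probe set and kept its values. There Slc12a2 moved only from just above 0.05 to 0.0499 (limma unadjusted p). The pathway count of 2 became 7 with array weights and 8 without runner 1 and control 1, beside the same 12.9% and 15.5% of all genes. With 1 array left out it was 1 to 9. Esrrg lay between -0.011, without control 4, and 0.065 with 1 array left out. Over all genes 2 calls became 15 with array weights, 426 without runner 1 and control 1, and 2 to 99 with 1 array left out. The count of 5 called pairs became 2 on values relative to the group mean, 2 without runner 1 and control 1, and 1 to 6 with 1 array left out, where Esrrb with Gjb6 passed in each count of 6. The replicate block left the count of all genes called at 2. Deviations of same-numbered arrays correlated at -0.25 to 0.28, so the numbers were not taken as pairs. The cause of these changes was not tested. The values used give no background signal for a probe, so what low signal limits was not tested.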
